A study of Arabidopsis thaliana with 39 samples.

Results

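miR775 was described across 13 growth and stress conditions of Arabidopsis thaliana. It is 1 of the 353 mature sequences counted in the small RNA libraries, and was found by its name in all 9 sheets of counts, 1 per stress. It was chosen by its measured levels under salinity, in reads scaled by miRNA reads and by genome-mapped reads, so the salinity values below are a description with no test. The other comparisons were tested.

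The labels name Col-0 wild type for every library, and every condition had 3 libraries labelled as biological replicates, 39 in all. Rosette leaves came from plants grown in soil, which were 27 days old and watered (C30) or dried to 30% soil water (D30, mild drought), or 30 days old and watered (C20) or dried to 20% (D20, severe drought). Whole seedlings of 15 days were unheated (H0) or kept at 37°C for 0.5 h (H0.5) or 6 h (H6). Other seedlings of 15 days were held for 24 h in liquid medium that was complete (C), held 250 mM NaCl (NaCl+), lacked copper (Cu-), held 10 μM CuSO4 (Cu+) or 10 μM CdSO4 (Cd+), or had its sulfates replaced by chlorides (S-). The same 3 C libraries were the control of 5 treatments, and the same 3 H0 libraries the control of both heat times.

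Plant miRNAs are cut by a Dicer enzyme from the stem of a hairpin transcript and loaded into an Argonaute protein, which they guide to complementary mRNAs. miR775 is a non-conserved miRNA, known from Arabidopsis and its close relatives and not from plants at large. Its known target in Arabidopsis is GALT9, a galactosyltransferase gene of the Golgi, and the pair has been linked to pectin in the cell wall and to organ size. Levels of mature miRNA in whole seedlings or leaves are averages over many cell types, so fewer expressing cells and less miRNA per cell cannot be told apart.

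The mature sequence and its hairpin are shown because the mature sequence matched the nuclear genome at a single place. Reads were counted by mature sequence, so the locus they came from was not tested. Capitals mark the seed (bases 2 to 8) in the mature sequence and the mature stretch in the hairpin. The DNA probe that the study used on Northern blots is given beside them.
miR775: uUCGAUGUcuagcagugcca
MIR775 hairpin: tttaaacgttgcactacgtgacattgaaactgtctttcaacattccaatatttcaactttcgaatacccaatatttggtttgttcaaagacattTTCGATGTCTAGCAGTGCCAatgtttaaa
Probe: tggcactgctagacatcgaa

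The 20 nt sequence had 1 exact match in the nuclear genome of the RefSeq assembly TAIR10.1, at chr1:29422546-29422565 on the plus strand. It lies in the gene MIR775 (AT1G78206, chr1:29422452-29422574), at bases 95 to 114 of the hairpin, which is its 3′ arm. The hairpin is intergenic, 529 bases downstream of the coding gene AT1G78200 and 141 bases from AT1G78210. No other of the 353 sequences shared its seed, 17 bases in a row or an alignment with 3 or fewer mismatches. The longest shared stretch was 8 bases, and the closest sequence had 8 mismatches. The sequences counted thus held no near-identical relative of miR775 with which it could share reads, as members of large families do. The probe paired with the mature sequence at all 20 bases.

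The complementary sites in mRNA are shown because GALT9 is the known target. Capitals mark bases that do not form a Watson-Crick pair with miR775.
GALT9 site: tCgTactgctagaTatcgaa
DCL1 site: tggAactgctagacatAgaG
The GALT9 gene (AT1G53290) holds its site at chr1:19872174-19872193, in the coding part of exon 2 of 7. Counted from the 5′ end of miR775, the unpaired positions are 7, 17 and 19, of which 2 are G:U pairs. Of 31460 annotated loci with an mRNA, none had an ungapped site with fewer than 3 mismatches and 2 had a site with 3. The other was DCL1 (AT1G01040), the Dicer that cuts miRNA hairpins, with a site at chr1:27227-27246 in exon 11 of 20 and mismatches at positions 1, 4 and 17. A site of this kind is a match of letters and was not tested for cleavage.

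Sequencing depth was even, at 10238448 to 10741289 reads per library, of which 91.9 to 99.1% mapped to the genome. The reads counted as miRNAs varied more, from 1018693 to 5036688. The 3 NaCl+ libraries held the fewest, and every other library had at least 2643250. miR775 had 85 to 2853 reads in a library, so counting error alone (95% Wilson interval) was 3.67 to 21.4% of its level. PCR copies were not separated from molecules, and these intervals cover counting error only. The level is given as reads per 1000000 miRNA reads (CPM) and, as a second scale, as reads per 1000000 genome-mapped reads (RPM).

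Within the heat series, 4 of the 9 libraries stood apart in miR775. The H0 libraries had 334.6, 46.3 and 380 CPM in replicates 1, 2 and 3. The H0.5 libraries had 283 CPM, 21.1 CPM and 25.4 CPM in the same order. The H6 libraries had 246, 16.9 and 354 CPM. Replicate 2 was the lowest of its condition at all 3 times, and replicate 3 was also low at 0.5 h. The 4 low libraries ranged from 16.9 to 46.3 CPM and the other 5 heat libraries from 246 to 380 CPM, with nothing in between. They held 85 to 228 reads of miR775 where the other 5 held 992 to 1696.

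The same 4 libraries were also the lowest or the highest of all 39 in other miRNAs. Among the 124 sequences with a mean of at least 10 CPM, 9 had their 4 lowest values in exactly these libraries, miR775 included, and 1 had its 4 highest there. miR843 was at 19.9 to 42.7 CPM in them and at 82.0 to 206 CPM in the other 5 heat libraries. miR833a-5p, a scarcer sequence with a mean of 14.4 CPM over the 39 libraries, was at 0.993 to 3.05 CPM against 13.3 to 21.3 CPM. Its low values rest on few reads. In the opposite direction, miR8183 was at 239 to 380 CPM in the 4 libraries and at 4.07 to 32.6 CPM in the other 35, a sequence that was singled out after its values were seen. The remaining sequences of this kind were miR400, miR841a-3p, miR5659, miR5996, the miR169d group and the miR8167 group, all low.

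The sequences of 4 of these miRNAs are shown with their seeds in capitals, since no pair of them shares a seed and they come from 2 chromosomes.
miR775: uUCGAUGUcuagcagugcca
miR843: uUUAGGUCgagcuucauugga
miR833a-5p: uGUUUGUUguacucggucuagu
miR8183: uUUAGUUGacggaauuguggc
The integrity numbers of the RNA of the 4 libraries were 8.0 to 8.4, against 8.2 to 8.6 in the other heat libraries. Genome mapping was 93.0% in replicate 2 of H0 and 92.6% in replicate 2 of H6, but 97.6 and 97.8% in the 2 low H0.5 libraries, and at least 97.9% in the other 5. The miRNA share of mapped reads was 47.7 to 51.6% in the 4 libraries and 39.8 to 46.0% in the other 5. The part of these differences in the level of miR775 was not tested. The labels give these 4 libraries the same accession and genotype as the rest, and whether their plants were of the same line was not tested. The tested heat comparisons of miR775 below are given with and without these libraries. The counts of listed miRNAs and the correlations between miRNAs were not recomputed without these 4 libraries alone.

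**Figure D1:**
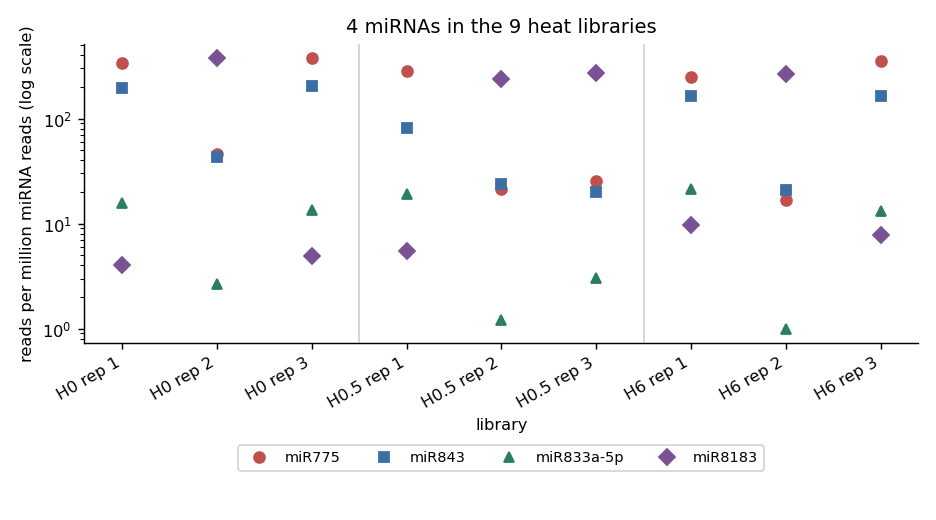
CPM (log axis) of miR775, miR843, miR833a-5p and miR8183 in each of the 9 heat libraries, 1 point per library and miRNA. In replicate 2 of H0, replicates 2 and 3 of H0.5 and replicate 2 of H6, miR775 lies at 16.9 to 46.3 CPM and miR8183 at 239 to 380 CPM, while in the other 5 libraries miR775 lies at 246 to 380 CPM.

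The mean of miR775 over the 39 libraries was 462 CPM, which placed it at rank 28 of 353 sequences, and its rank in a single library ran from 22 to 91. Its neighbours in abundance were miR822-5p (477 CPM) and miR160a-3p (477 CPM) above, and miR319b.2 (429 CPM) and miR172b-5p,e-5p (402 CPM) below. At most 0.0893% of the miRNA reads of a library were miR775, since 5 sequences of the miR157, miR156, miR167, miR166 and miR168 families took most of them.

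In CPM, leaves of drought-stressed plants stood at the top and heat-series seedlings at the bottom. The means were 781 ± 55.3 CPM in D30, 740 ± 47.9 CPM in D20, 717 ± 161 CPM in NaCl+, 680 ± 76.4 CPM in C30 and 532 ± 62.2 CPM in C20 (SD, n = 3). The seedlings of the liquid medium came next, with 431 ± 36.1 CPM in S-, 411 ± 81.0 CPM in C, 403 ± 39 CPM in Cu+, 377 ± 61.7 CPM in Cu- and 364 ± 15.8 CPM in Cd+. The lowest means were 254 ± 181 CPM in H0, 206 ± 172 CPM in H6 and 110 ± 150 CPM in H0.5. In this order only C20 and C30 were neighbours whose libraries did not overlap. The top and the bottom mean differed by 2.83 on the log2 scale, and by 1.46 without the 4 low heat libraries. Those libraries left out, H0 stood at 357 CPM (2 libraries), H6 at 300 CPM (2 libraries) and H0.5 at 283 CPM (1 library), still the 3 lowest conditions.

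In RPM the order of the means was different. C30 (242 RPM), D30 (241 RPM) and D20 (207 RPM) stood at the top, so watered and mildly dried leaves had about the same mean. S- (175 RPM), Cu+ (169 RPM), C20 (166 RPM), Cu- (161 RPM), C (161 RPM) and Cd+ (142 RPM) followed. H0 (112 RPM), NaCl+ (97.1 RPM), H6 (87.8 RPM) and H0.5 (50.8 RPM) were the lowest. On this scale the libraries of every neighbouring pair of conditions overlapped.

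Outside the heat series the replicates lay closer together than within it. In CPM the SD was 4.33% of the mean in Cd+, 6.48% in D20 and 7.08% in D30. It was larger in Cu- (16.4%), C (19.7%) and NaCl+ (22.5%). In the heat series it was 71.3% in H0, 83.8% in H6 and 137% in H0.5.

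**Figure D2:**
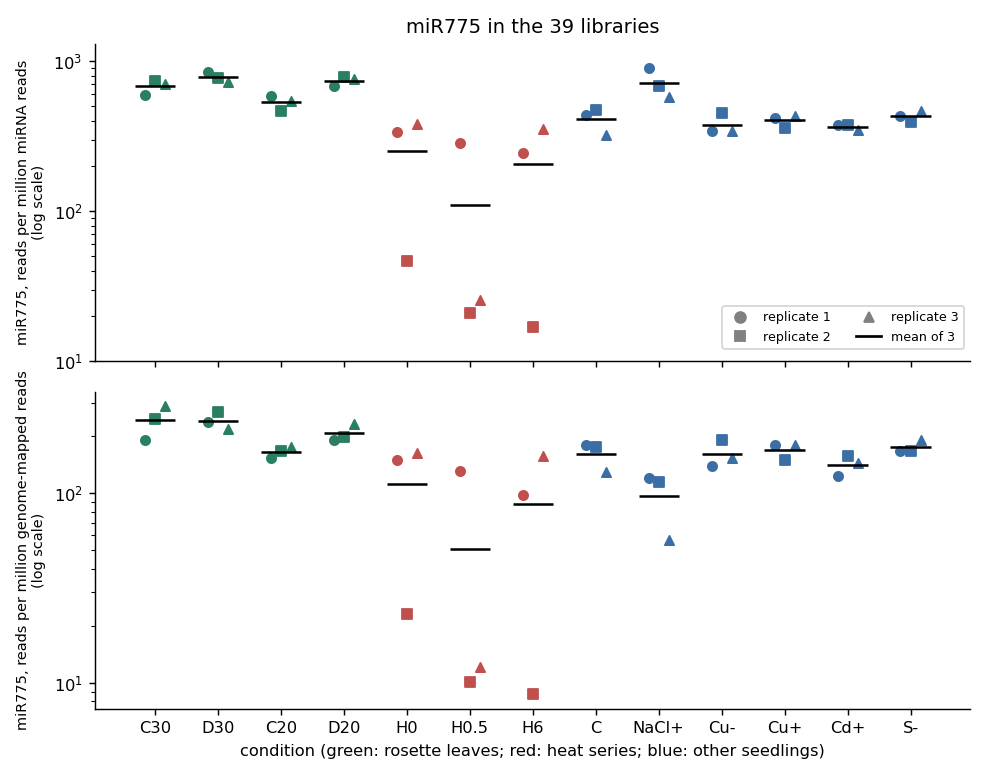
miR775 in each of the 39 libraries, as reads per 1000000 miRNA reads (upper panel) and reads per 1000000 genome-mapped reads (lower panel), on log axes. Symbols mark the replicate, bars the mean of 3 libraries, and colours leaves (green), the heat series (red) and other seedlings (blue). NaCl+ has the third highest mean in the upper panel (717 CPM) and the third lowest in the lower (97.1 RPM).

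Salinity is the condition by whose values miR775 was chosen. The study blotted miR775 in salt-treated seedlings together with miR157 and miR162, and the question here is what its reads show when they are divided by different totals. In CPM the NaCl+ libraries had 893, 683 and 576, and the C libraries 437, 475 and 320. All NaCl+ libraries were above all C libraries. The mean was 411 CPM in C and 717 CPM in NaCl+, a ratio of 1.75. Of the 124 sequences with a mean of at least 10 CPM, 29.0% were higher without overlap in the same way.

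In RPM the order was turned. The NaCl+ libraries had 120, 114 and 56.7 RPM, and the C libraries 180, 175 and 129 RPM. All NaCl+ libraries were below all C libraries, with means of 97.1 ± 35.1 and 161 ± 28.3 RPM (SD, n = 3), a ratio of 0.601. On this scale 79.0% of the 124 sequences were lower without overlap. The reads of miR775 themselves numbered 587 to 1217 in NaCl+ and 1356 to 1881 in C.

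The scales differ by the miRNA share of the libraries. miRNAs made up 13.5, 16.7 and 9.84% of the genome-mapped reads of the NaCl+ libraries, and 41.2, 36.9 and 40.3% of those of the C libraries. The genome-mapped totals themselves were alike, at 10117091 to 10360193 in NaCl+ and 10427654 to 10604342 in C. Mapped reads that were not counted as miRNAs numbered at least 8626203 in each NaCl+ library and at most 6691789 in each C library. Total miRNA output and the yield of other small RNA in the libraries cannot be told apart from these counts.

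The log2 ratio of means was 0.81 in CPM, where the median of the 124 sequences was 0.13, and -0.73 in RPM, where the median was -1.45. Under the other scalings by miRNA reads the log2 ratio was 0.72 (TMM), 0.59 (RLE) and 0.96 (total less the 5 most read sequences), and with all reads of the library it was -0.73. Leaving out single libraries gave 0.62 to 0.94 in CPM and -0.92 to -0.46 in RPM.

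The other 2 blotted miRNAs, which the study chose on these samples, went the same way. miR157a-5p,b-5p,c-5p, which represses SPL transcription factor genes, had 1.20 times the C mean in CPM and 0.407 times in RPM. miR162a-3p,b-3p, which targets DCL1, had 1.34 times in CPM and 0.450 times in RPM. Among the neighbours of miR775 in abundance, miR172b-5p,e-5p, the partner strand of a repressor of AP2-type genes, was above the C mean on both scales. It was at 4.01 times in CPM and 1.34 times in RPM. miR160a-3p was below on both, at 0.211 and 0.0692 times, and so was miR319b.2, at 0.454 and 0.154 times. miR822-5p was near the C mean in CPM (0.987 times) and below it in RPM (0.330 times).

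**Figure D3:**
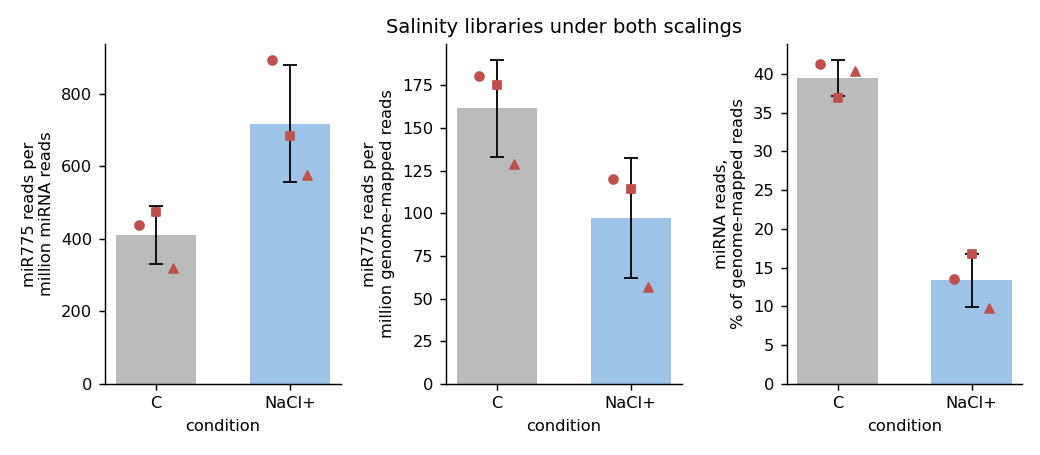
miR775 in the 3 C and 3 NaCl+ libraries as reads per 1000000 miRNA reads (left) and reads per 1000000 genome-mapped reads (middle), and the miRNA share of genome-mapped reads (right). Bars are means, error bars SD and points libraries, with circles, squares and triangles for replicates 1, 2 and 3. The NaCl+ mean is 1.75 times that of C at the left and 0.601 times in the middle, and the miRNA share is 13.3% in NaCl+ and 39.5% in C.

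In the comparisons other than salinity, miR775 passed the test in none. The C libraries were part of the salinity values by which it was chosen. They also enter the comparisons of Cu-, Cu+, Cd+, S- and H0 with C and of leaves with seedlings. Those comparisons are thus not free of the choice. edgeR's quasi-likelihood test was run over all sequences kept by the count filter, with TMM scaling and Benjamini-Hochberg adjustment, and an adjusted p under 0.05 was a call. Of 15 comparisons 0 were called for miR775 and 0 had an unadjusted p under 0.05, the lowest being 0.081. DESeq2 called 0 of the 14 for which it gave an adjusted p. The one-way F test on CPM that the study used, without adjustment, passed 1 of 13, which was D20 against C20.

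Under severe drought miR775 was higher than in the watered leaves without passing edgeR's test. The D20 libraries had 686, 778 and 754 CPM and the C20 libraries 587, 465 and 544 CPM. All severe drought libraries lay above all watered ones. The same held in RPM, with 191, 199 and 231 in D20 against 154, 167 and 176 in C20. The smallest p that an exact permutation test of 3 against 3 can give, 0.1, was reached on both scales. Non-overlap in this direction was found for 27.4% of the 124 sequences in CPM and 20.2% in RPM. With TMM scaling the log2 fold change was 0.21 ± 0.15 (SE) and edgeR's adjusted p 0.37, in a comparison that called 19.8% of 167 sequences. The log2 change in CPM was 0.47, with an F test p of 0.0102, and edgeR with total miRNA reads gave an adjusted p of 0.0717. The size of the difference thus depended on the scaling and its direction did not.

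Mild drought gave no such separation. The D30 libraries had 840, 773 and 730 CPM and the C30 libraries 593, 739 and 706 CPM, which overlapped. The log2 fold change was 0.08 ± 0.19 (SE, edgeR adjusted p = 0.92), in a comparison that called 0.602% of 166 sequences. With genome-mapped reads it was -0.0044. The difference between the severe and the mild response was 0.25 ± 0.20 (SE, edgeR adjusted p = 0.51), where 3.39% of 177 sequences were called.

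Between the watered leaves of the 2 drought experiments miR775 was not called, though its libraries did not overlap. C20 had a lower mean than C30, 532 against 680 CPM, and the ranges of 465 to 587 and 593 to 739 CPM did not overlap. In RPM they were 154 to 176 against 191 to 288. Non-overlap in this direction was found for 16.9% of sequences in CPM and 23.4% in RPM. The log2 fold change was -0.29 ± 0.15 (SE, edgeR adjusted p = 0.29). In that comparison edgeR called 0 of 167 sequences, with 35 at an unadjusted p under 0.05, and DESeq2 called 8. The plants of C20 were 3 days older, and the part of age was not tested. D20 at 740 CPM and D30 at 781 CPM had closer means than their controls.

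The heat values varied with the 4 libraries described above. H0.5 against H0 gave a log2 fold change of -0.76 ± 1.18 (SE, edgeR adjusted p = 0.98), in a comparison that called 1.23% of the sequences tested. Without the 4 libraries it was -0.18 ± 0.16 (edgeR adjusted p = 0.55), with H0.5 represented by 1 library that is assumed to vary like H0, and 20 of 176 sequences were called in place of 2. Without the 3 libraries of replicate 2 it was -1.04 ± 1.10 (edgeR adjusted p = 0.69). Leaving out replicate 1 of H0.5, its only library at the higher level, gave -3.04, with an edgeR adjusted p of 0.34.

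H6 against H0 gave -0.19 ± 0.98 (SE, edgeR adjusted p = 0.96), where 6.79% of the sequences tested were called. Replicate 2 was low in both groups, and without it in either the value was -0.25 ± 0.32 (edgeR adjusted p = 0.82). Same-numbered libraries of H0 and H6 deviated together, with correlations of 0.33 to 0.71 across sequences. Each deviation was taken from the mean of the 3 libraries of its group. Replicate 2 stood apart in both groups, so it also enters the correlations of replicates 1 and 3. Whether those replicates deviate together apart from it was not tested. With the replicate block the paired value was -0.42 ± 0.31 (SE, edgeR adjusted p = 0.52), and 19 sequences were called in place of 11. In each of the 3 numbered pairs H6 was below H0 in CPM, from 334.6 to 246, from 46.3 to 16.9 and from 380 to 354. Leaving out replicate 2 of H6 alone, which breaks a pair, turned the unpaired value to 0.26. H6 against H0.5 gave 0.82 ± 1.21 (SE, edgeR adjusted p = 0.91), where 3.11% of 161 sequences were called, and -0.04 ± 0.69 without the 4 libraries (edgeR adjusted p = 0.99). Leaving out replicate 1 of H0.5 moved it to 3.07. The 5 libraries that did not stand apart were at 335 to 380 CPM in H0, 283 CPM in H0.5 and 246 to 354 CPM in H6.

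The unheated H0 seedlings and the C seedlings were of the same age and unstressed. The C seedlings had spent 24 h in liquid medium, while the heat series was kept on plates. Medium and experiment differed together and cannot be told apart. H0 had 0.617 times the mean of C in CPM, and the log2 fold change was -0.55 ± 0.62 (SE, edgeR adjusted p = 0.62), where 16.6% of the sequences tested were called. Without replicate 2 of H0 it was -0.06 ± 0.18 (edgeR adjusted p = 0.81), and H0 and C then overlapped at 335 to 380 CPM against 320 to 475.

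In the metal and sulfur treatments miR775 overlapped its level in C. The Cu- libraries had 342, 448 and 340 CPM, the Cu+ libraries 419, 358 and 431, the Cd+ libraries 373, 374 and 346, and the S- libraries 431, 395 and 467. Each group overlapped the C range of 320 to 475 CPM. These 4 comparisons shared the C libraries. With edgeR, the log2 fold change was 0.0034 ± 0.19 for Cu- (SE, adjusted p = 1.00), where 10.5% of the sequences tested were called. For Cu+ it was 0.02 ± 0.16 (edgeR adjusted p = 0.96), beside 1.24% of 161 called. Same-numbered libraries of Cu+ and C deviated together, with correlations of 0.20 to 0.32 across sequences. With the replicate block the paired value was 0.03 ± 0.18 (SE, edgeR adjusted p = 0.95), and edgeR called 0 sequences in place of 2, with 25 at an unadjusted p under 0.05.

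Cadmium excess gave -0.14 ± 0.15 (SE, edgeR adjusted p = 0.61), where 11.2% of 160 sequences were called. Sulfur deficiency gave 0.12 ± 0.15 (SE, edgeR adjusted p = 0.88). For S- edgeR called 0 of 161 sequences, with 8 at an unadjusted p under 0.05, and DESeq2 also 0. In CPM, the Cd+ libraries had the smallest SD relative to the mean of the 13 conditions.

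Between treatments, Cu- against Cu+ gave -0.16 ± 0.17 (SE, edgeR adjusted p = 0.62). There edgeR called 0 of 166 sequences, with 27 at an unadjusted p under 0.05, and DESeq2 called 2. Cd+ against Cu+ gave -0.13 ± 0.15 (SE, edgeR adjusted p = 0.72), beside 0.617% of the sequences tested called.

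**Figure D4:**
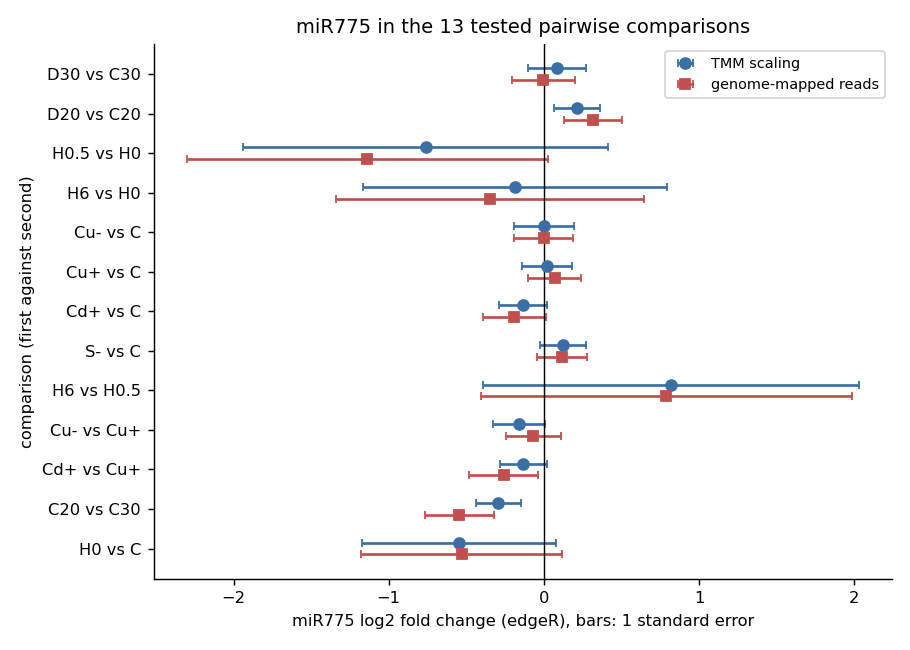
Log2 fold change of miR775 in the 13 tested pairwise comparisons, first named condition against the second, with TMM scaling (blue circles) and with genome-mapped reads (red squares); bars are 1 standard error. D20 against C20 lies at 0.21 and C20 against C30 at -0.29 with TMM, and the comparisons that include heat libraries have standard errors of 0.62 to 1.21.

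In CPM leaves stood above most seedlings, by an amount that depended on the scaling. The 12 leaf libraries had 465 to 840 CPM, and the seedling libraries other than NaCl+ had 16.9 to 475. In RPM these ranges were 154 to 288 and 8.71 to 191. The watered leaves (C30, C20) against the unstressed seedlings (H0, C) gave a log2 fold change of 0.29 ± 0.35 with TMM (SE, edgeR adjusted p = 0.52), where 51.9% of 185 sequences were called and the median of all sequences was -0.05. With total miRNA reads it was 0.90 ± 0.37 and was called (edgeR adjusted p = 0.0473), but there the median of all sequences was 0.58. With genome-mapped reads it was 0.58 ± 0.35 and was not called (edgeR adjusted p = 0.18), beside a median of 0.23. Without replicate 2 of H0 the TMM value was 0.07 ± 0.11 (edgeR adjusted p = 0.64). Organ, age, growth substrate and experiment differed together and cannot be told apart.

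The miRNAs whose condition means were most like those of miR775 were found among the 124 sequences by Pearson's r of log2(CPM + 1) over the 13 conditions. They were miR391-5p (r = 0.97), miR833a-5p (0.95), miR825 (0.94), miR841a-5p (0.94) and miR843 (0.94). The 3 least alike were miR156g (-0.83), miR157a-3p,b-3p (-0.82) and miR156a-5p to f-5p (-0.79), of the family that represses SPL genes in the juvenile phase. All points share libraries and totals, and these values are descriptions of 13 means. Over the 9 seedling conditions alone r was 0.97 for miR391-5p and -0.95 for miR156a-5p to f-5p.

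The pattern was carried more by the heat series than by leaves. The heat means include the 4 libraries in which miR775 was low, and r was not computed without those alone. Over the 9 seedling conditions, without leaves, r was 0.93 for miR841a-5p and 0.95 to 0.97 for the other likest miRNAs. Without the 3 heat conditions r was 0.87 for miR391-5p, 0.84 for miR833a-5p, 0.87 for miR825, 0.79 for miR841a-5p and 0.28 for miR843. The likeness of miR843 thus lay mostly in the heat series. miR391-5p ran from 401 CPM in H0.5 to 4286 CPM in D20, and was at 888 CPM in H0. Unlike miR775 it was low in all 9 heat libraries, at 325 to 1113 CPM, and its 4 lowest libraries were not the 4 in which miR775 was low. miR843 and miR833a-5p were low in exactly those. With RPM means r remained 0.96 for miR391-5p and was 0.77 for miR841a-5p. The 3 least alike were then at -0.72 (miR156g), -0.68 (miR157a-3p,b-3p) and -0.55 (miR156a-5p to f-5p), weaker than in CPM.

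**Figure D5:**
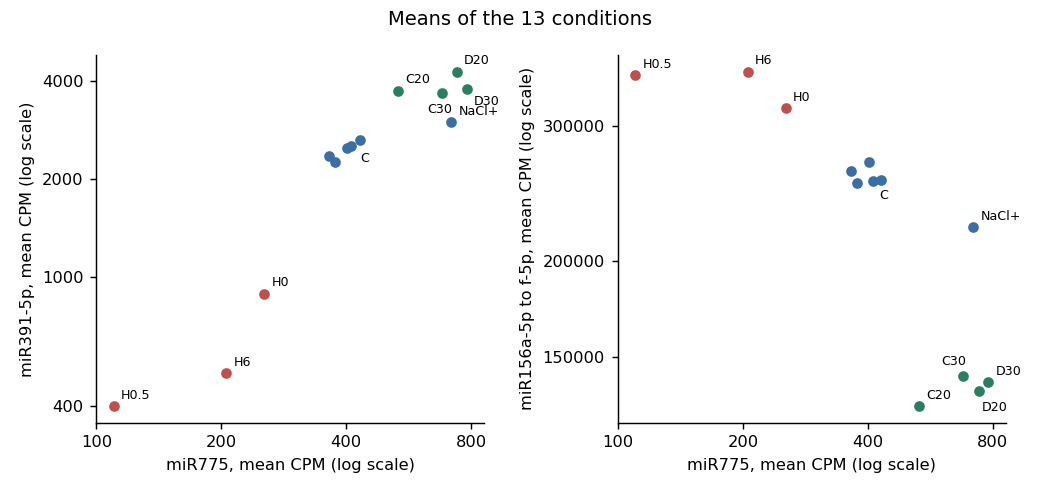
Mean CPM of miR775 (x axis) against that of miR391-5p (left) and of miR156a-5p to f-5p (right) in the 13 conditions, on log axes; green are leaves, red the heat series and blue other seedlings, of which only C and NaCl+ are named. miR391-5p rises with miR775 (r = 0.97 on log2 values), and the miR156 sequence falls (r = -0.79). With RPM means r is 0.96 and -0.55.

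Other non-conserved miRNAs, taken as the miRNA numbers 770 to 870 without miR775, miR827, miR828 and miR858, were counted beside miR775. Of 91 listed sequences 30 to 40 passed the count filter in a comparison. In severe drought 3 of 33 rose and 2 fell, with a median log2 fold change of -0.16 beside -0.11 for all 167 sequences, of which 15 rose and 18 fell. Under cadmium 2 of 31 rose and 3 fell (median -0.09 beside -0.01), where 10 of all 160 sequences rose and 8 fell. Under copper deficiency 1 of 32 rose and 1 fell (median -0.11 beside 0.11), where 13 of all sequences tested rose and 4 fell. In copper excess 1 of 31 rose, beside 2 of all 161, and in sulfur deficiency, mild drought and 0.5 h of heat 0 were called. In 6 h of heat 1 of 30 rose and 1 fell, where 2 of all sequences tested rose and 9 fell. Between watered leaves and unstressed seedlings 9 of 40 were higher in leaves and 14 lower, beside 39 and 57 of all 185.

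The miRNAs linked to cell wall genes were miR397a, miR397b, miR408-3p and miR857, which repress laccase and plantacyanin genes, and miR319b.2. All 5 passed the filter in every comparison. In severe drought 2 rose and 1 fell (median 0.32 beside -0.11 for all), where 15 of all 167 sequences rose and 18 fell. Under copper deficiency 1 rose (median -0.22 beside 0.11), where 13 of all sequences rose and 4 fell. In H0 against C 3 fell, with a median of -2.38 beside 0.06 for all sequences, of which 16 rose and 11 fell. In watered leaves 4 were lower than in unstressed seedlings, beside 57 lower and 39 higher of all 185. In the other 6 stress comparisons 0 were called. miR775 was called beside none of them.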

How the data were processed

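The authors sequenced small RNA of 39 libraries, dropped reads under 17 nt, mapped the rest to the TAIR10 genome with Bowtie 1.0.0 and counted matches to the mature miRNAs of miRBase 21, trimming unmatched reads at both ends for another attempt. The deposited read counts per mature sequence were used, with the deposited totals of reads, genome-mapped reads and miRNA reads. The RNA integrity number is a deposited score. The sheets also hold the authors' CPM, fold changes and p-values, which were not used.

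Sums of the counts equalled the deposited miRNA totals in 39 of 39 libraries. No replicates agreed within sampling noise (chi-square per degree of freedom of at least 54.3). Tests used edgeR 4.0.16 in R 4.3.3 (filterByExpr with a minimum count of 10, TMM, glmQLFit and glmQLFTest) on the libraries of each comparison, and the SE is the log2 fold change over the root of F. The edgeR test was also run on simulated counts with a single fixed spread, which does not stand for that of the heat libraries. Alternatives were RLE, total miRNA, genome-mapped and reduced totals, no filter, DESeq2 1.42.0, the F test on CPM, 1 fit of 39 libraries, the replicate block and leaving out each library. Fits without the low heat libraries were chosen after seeing the data. Same-numbered libraries deviated together (every correlation over 0.1) in H6 against H0 (0.33 to 0.71) and Cu+ against C (0.20 to 0.32) only. In H6 against H0, replicate 2 stood apart in both groups and enters all of these correlations. The labels give the number and no shared batch.

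Named miRNAs were miR775, the other 2 blotted under salinity, the 5 most and 3 least alike over the 13 condition means among 124 sequences of at least 10 CPM, the 2 next above and below in abundance, and, where miR775 was called, called members of the lists. miR775 and the lists were chosen with earlier results of these data known. Positions and sequences are from RefSeq TAIR10.1. Biological replicates are so called by the labels, and p-values measure the spread between them.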

Additional observations from a re-analysis of the deposited data

How the results depend on the processing

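Of 253 alternative values for miR775, 226 were counted as keeping the main result. In the tested comparisons this meant the same direction and the same side of the threshold. Salinity and the level over conditions had no test and no threshold. For salinity it meant the same direction and a move under the replicate spread of 0.44 on the log2 scale. For the span of the level the spread of the H0.5 libraries was used. That spread was wide, so a fall from 2.83 to 1.46 was counted as kept. Severe drought against its control passed only the F test on CPM (0.47). Watered leaves against unstressed seedlings was called only with total miRNA reads (0.90). Genome-mapped reads and all reads turned the salinity log2 ratio from 0.81 to -0.73. Genome-mapped reads also turned D30 against C30 (-0.0044), which was 0.08. Cu- against C, at 0.0034, turned with RLE (-0.0845), total miRNA reads (-0.12), the total less the 5 most read (-0.14), DESeq2 (-0.0846) and the F test (-0.12). Cu+ against C, at 0.02, turned with total miRNA reads (-0.0275), the reduced total (-0.0193) and the F test (-0.0276). With 1 fit of 39 libraries Cd+ against C was 0.0145 and Cu- against Cu+ 0.0038. H6 against H0.5 turned without the 4 low heat libraries (-0.0393). Those with a standard error lay under it, except the leaf value.

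Leaving out each library called none of 102 fits. The range was -0.0231 to 0.18 for D30 against C30 (lowest without replicate 1 of C30, also below 0 without replicate 2 of D30), 0.26 to 0.39 for D20 against C20, -3.04 to -0.35 for H0.5 against H0, -0.96 to 0.26 for H6 against H0, 0.20 to 3.07 for H6 against H0.5, -0.32 to 0.0792 for Cu- against C, -0.12 to 0.0866 for Cu+ against C, -0.25 to -0.0072 for Cd+ against C, -0.0034 to 0.19 for S- against C, -0.23 to -0.04 for Cu- against Cu+, -0.21 to -0.06 for Cd+ against Cu+, -0.37 to -0.24 for C20 against C30, -0.90 to -0.06 for H0 against C, 0.07 to 0.54 for leaves against seedlings, 0.10 to 0.30 for severe minus mild drought and 0.62 to 0.94 for salinity. H6 against H0 turned without replicate 1 or 3 of H0 or replicate 2 of H6, Cu- against C without replicate 2 or 3 of C or 2 of Cu-, Cu+ against C without replicate 3 of C or of Cu+, and S- against C without replicate 3 of C. The cause of these turns was not tested.

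The replicate block called miR775 in 0 of 14 fits and changed no direction. H0.5 against H0 was -1.28 with it. Where the replicate numbers were not found to pair the libraries, it moved the count of all sequences called. The count went from 1 to 4 in D30 against C30, 33 to 27 in D20 against C20 and 0 to 3 in C20 against C30. It went from 18 to 8 in Cd+ against C and 27 to 17 in H0 against C. In Cu- against C it fell from 17 to 0 (37 at an unadjusted edgeR p under 0.05). It fell from 5 to 0 in H6 against H0.5 (20) and from 1 to 0 in Cd+ against Cu+ (27). In severe minus mild drought, where pairing was not examined, it went from 6 to 4. DESeq2 gave no p-value for miR775 in H0.5 against H0. Depth limits the 4 low heat libraries most, with 85 to 228 reads of miR775.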
